A study of Mus musculus with 4 samples.

Results

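The keratin genes encode the intermediate filament proteins of epithelial cells. They were taken as all non-control probes of a mouse expression array whose gene name in the scanner files is Krt followed by digits only, which excludes keratin-associated protein genes. The rule found 47 probes for 40 genes, of 27630 genes or transcripts on the array, and no probe carried an older compound name. For each gene the probe of highest mean signal was used, and 7 genes had a second probe. Of the 40 genes, 23 encode type I keratins and 17 type II keratins, and their probes lie on chromosomes 11 (22 genes) and 15 (18 genes).

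Keratin filaments are built from heterodimers of a type I (acidic) and a type II (basic) chain, and epithelia differ in the pair they make. Krt8 and Krt18 form the filaments of simple epithelia, Krt5 and Krt14 those of the basal layer of the epidermis, and Krt1 and Krt10 replace these as epidermal cells leave the basal layer. Other members belong to internal stratified epithelia, to activated epidermis, or to the root sheath and shaft of the hair follicle. Limb tissue includes surface ectoderm and so has an epidermal source of keratin RNA, whereas epidermis is not part of the neural tissue of the brain.

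RNA of limb and of brain was taken from E13.5 mouse embryos on a mixed 129 and C57BL/6 background, either wild type (WT) or with conditional knockout of Rest (CKO), and each of the 4 groups was measured on 1 array of 1 slide. Rest encodes a zinc finger repressor that silences neuronal genes outside neurons. In CKO embryos floxed Rest alleles were removed in utero by a doxycycline-inducible Cre, and doxycycline from E8.5 to E13.5 (embryonic days) is recorded for WT samples as well as CKO samples. The cells in which Cre was active, the alleles carried by WT embryos and the number of embryos per RNA sample are not given in the sources used here.

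Levels are log2 processed Cy3 intensities minus the 75th percentile of the same array, so 0 is the 75th percentile of that array's spots. A probe is called detected on an array where its spot carried the scanner's call of being well above background. With 1 array per group, a difference between CKO and WT in one tissue has no replicate check and no p-value. Its only error is technical: each array carries 245 probes in 10 copies, and the SD of a difference among copies of probes at the same signal level is given below. The levels of a keratin are listed in the order WT limb, CKO limb, WT brain, CKO brain. Probes differ in how brightly they hybridise, so each keratin is compared with itself across arrays and never with another keratin.

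Between 62.7% and 70.7% of the 43379 non-control spots were well above background per array, with the higher shares on both CKO arrays. Rest itself was lower in CKO at its brightest probe, 4.01-fold in limb and 1.88-fold in brain, and the other 2 probes were lower by more (15.6-fold and 17.1-fold in limb). Of the limb mesenchyme, cartilage and muscle markers, Tbx5 and Hoxd13 were detected on both limb arrays and on neither brain array. Prrx1 and Col2a1 were detected on all 4 arrays, and Myog on both limb arrays and the CKO brain array. Between the brain arrays, the CKO signal exceeded the WT signal 2.03-fold for Prrx1 and 3.27-fold for Col2a1. The bearing of these 3 genes on the brain keratin values was not tested. The brain genes Sox2 and Neurod1 were detected on both brain arrays and on neither limb array. The neuronal gene Tubb3 was detected on all 4 arrays with a 256-fold higher WT signal in brain, and Emx2 was level between the tissues (0.05 log2). The surface ectoderm regulator Trp63 was detected on both limb arrays and on neither brain array.

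Krt8, Krt18 and Krt7, the simple-epithelium keratins that the comparisons below turn on, are shown by the 250 bases before their RefSeq start sites, 5′ to 3′ on the gene's strand (GRCm38.p6). Krt8 lies on the minus strand at chr15:102004343-102004592, Krt18 on the plus strand at chr15:102027966-102028215 and Krt7 on the plus strand at chr15:101412153-101412402. Capitals mark matches, on either strand, to the GC box GGGCGG and the AP-2 motif GCCNNNGGC, letters that can overlap.
Krt8: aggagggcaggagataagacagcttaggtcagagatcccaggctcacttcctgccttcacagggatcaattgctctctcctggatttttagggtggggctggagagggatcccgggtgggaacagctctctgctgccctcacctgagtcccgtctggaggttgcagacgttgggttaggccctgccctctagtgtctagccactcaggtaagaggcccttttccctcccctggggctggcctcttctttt
Krt18: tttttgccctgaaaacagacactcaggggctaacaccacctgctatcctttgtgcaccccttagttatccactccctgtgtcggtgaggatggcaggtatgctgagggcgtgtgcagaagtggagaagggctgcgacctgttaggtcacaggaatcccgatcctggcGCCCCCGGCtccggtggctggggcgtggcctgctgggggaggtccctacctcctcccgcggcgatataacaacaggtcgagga
Krt7: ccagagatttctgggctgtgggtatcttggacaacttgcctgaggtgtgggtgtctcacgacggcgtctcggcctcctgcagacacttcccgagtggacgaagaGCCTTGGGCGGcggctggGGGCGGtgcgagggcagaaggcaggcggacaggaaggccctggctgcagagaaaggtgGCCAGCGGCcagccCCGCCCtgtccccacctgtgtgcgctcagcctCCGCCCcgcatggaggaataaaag
These stretches hold 58.0% G and C in Krt8, 60.4% in Krt18 and 66.0% in Krt7, against a median of 48.4% over the 29 keratin promoters in the table, which cover 28 of the 40 genes. Krt7 was the highest of the 29, Krt18 ranked 3 and Krt8 ranked 5. The median over all 32851 promoters was 52.4%.

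Of the 40 keratins, 25 were detected on at least 1 array, 12 on all 4 arrays and 15 on none. Of all 27630 genes, 15631 were detected on all 4 arrays. WT limb had 22 detected keratins, CKO limb 23, WT brain 15 and CKO brain 20. Over all genes the detected share was also higher in CKO, 68.0% against 62.4% in brain and 66.1% against 61.0% in limb. Krt4, Krt35, Krt80 and Krt84 were detected on both limb arrays and on neither brain array, and Krt222 the other way round. Krt71 was detected on CKO brain alone, at -5.95, a floor-level call below its undetected WT brain value of -5.60. How many of all genes had these tissue patterns was not counted. The 15 undetected genes included 8 of the 10 hair shaft and nail keratins, 3 of the 5 of the inner root sheath and 3 of the 5 of internal stratified epithelium and cornea, with levels between -8.44 and -5.62. Body hair follicles have not yet formed at this age. No keratin probe was saturated.

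**Figure D1:**
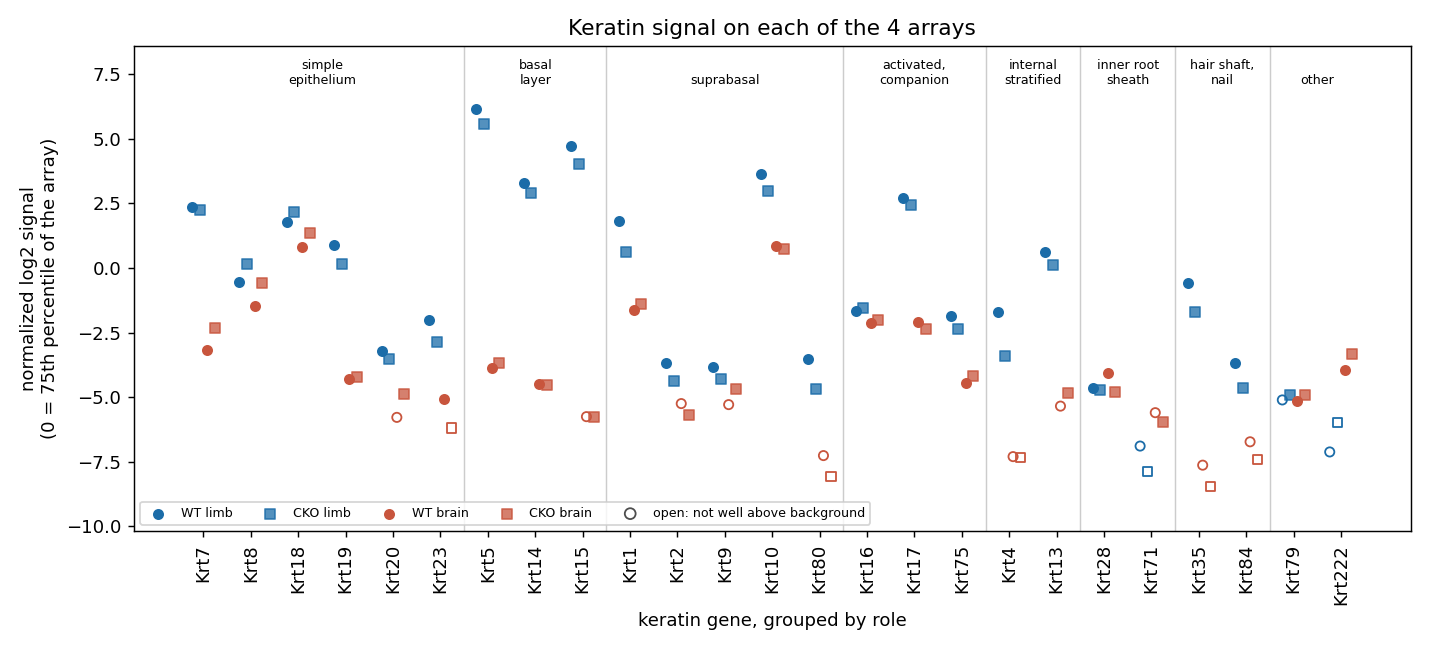
Level of each of the 25 detected keratins on the 4 arrays (vertical axis, log2 signal relative to the array's 75th percentile), grouped by role along the horizontal axis; circles are WT, squares CKO, and open symbols were not well above background. Limb symbols lie above brain symbols for most keratins, by the widest margin in the basal layer, while Krt8, Krt18, Krt16 and Krt28 lie close together; heights of different genes are not comparable.

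In limb, keratins were mostly lower on the CKO array than on the WT array. Of the 23 keratins detected on at least 1 limb array, 4 were at least 2-fold lower (17.4%, against 2.15% of all 18450 genes compared) and none was at least 2-fold higher (against 2.51%). At 1.5-fold, 11 were lower (47.8%, against 4.71%) and 1 was higher (against 4.81%), the simple-epithelium keratin Krt8. Among the 22 detected on both arrays, 19 lay below 0 (86.4%, against 58.9% of genes), and the exceptions were Krt8, Krt18 and Krt16. The median difference over the 23 was -0.52 log2, against -0.02 over all genes compared. Fewer epithelial cells and less keratin RNA per cell cannot be told apart in bulk tissue.

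The basal-layer keratins were all among the lower genes in limb. Krt5, the type II keratin of basal cells, had levels of 6.16, 5.57, -3.89 and -3.69. It was 1.51-fold lower in CKO limb (-0.59 ± 0.06, technical SD). Its partner Krt14 had levels of 3.30, 2.89, -4.48 and -4.54 and was 1.33-fold lower in CKO limb (-0.41 ± 0.07). Krt15, a type I keratin of basal cells and of hair follicle stem cells, went from 4.72 to 4.04 in limb, 1.61-fold lower (-0.68 ± 0.06). All 3 differences exceeded the technical SD several times over.

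The keratins of the layers above the basal layer were lower by similar or larger amounts. Krt1 had levels of 1.81, 0.61, -1.63 and -1.39, which made it 2.29-fold lower in CKO limb (-1.20 ± 0.07). Its partner Krt10 had levels of 3.63, 2.97, 0.84 and 0.72 and was 1.57-fold lower in CKO limb (-0.66 ± 0.07). Krt80, a type II keratin of differentiating epithelia, went from -3.52 to -4.69 in limb and was undetected in brain. It was 2.25-fold lower (-1.17 ± 0.20). Krt2, a keratin of the uppermost living epidermis, and Krt9, best known from palm and sole skin, were both dim and lower by 1.62-fold and 1.37-fold. All 5 suprabasal keratins therefore lay below 0 in limb, and 4 of them were at least 1.5-fold lower.

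The lowest CKO to WT ratio in limb belonged to Krt4, a type II keratin of internal stratified epithelia such as oesophagus. Its level was -1.71 on WT limb and -3.42 on CKO limb, and it was undetected in brain (3.25-fold lower, -1.70 ± 0.11). Its usual partner Krt13 went from 0.64 to 0.12 (1.43-fold lower, -0.52 ± 0.07), so the difference of Krt4 minus that of Krt13 was -1.18. Of the hair and nail keratins, Krt35 went from -0.57 to -1.71 (2.20-fold lower, -1.14 ± 0.09) and Krt84 from -3.69 to -4.63 (1.92-fold lower, -0.94 ± 0.21), and both were undetected in brain. These are the only 2 of the 10 hair and nail keratins that were detected in limb.

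Keratins of activated epidermis and of the follicle companion layer differed less. Krt17, which marks embryonic ectoderm and injured epidermis, was 1.22-fold lower in CKO limb (-0.28 ± 0.07) and Krt75, a companion layer keratin, 1.42-fold lower (-0.50 ± 0.10). Krt16, an injury keratin, had levels of -1.68 and -1.54 in limb, a difference of 0.13 ± 0.10. None of the 3 reached 1.5-fold in either direction.

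The simple-epithelium keratins were split in limb. Krt19, a short type I keratin of simple and embryonic epithelia, had levels of 0.87, 0.14, -4.29 and -4.23, and was 1.66-fold lower in CKO limb (-0.74 ± 0.07). Krt23 was 1.85-fold lower (-0.89 ± 0.11) and Krt20, a keratin of gut epithelium and Merkel cells, 1.24-fold lower (-0.31 ± 0.14). Krt7, a type II keratin of ducts and glands, had levels of 2.37 and 2.23 (-0.14 ± 0.07). Krt8 and Krt18 lay on the other side of 0, as described below.

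Dim probes read lower on CKO arrays in general. Among the 17 keratins undetected on both limb arrays the median difference was -0.83 log2, and over all 9179 such genes it was -0.82. The keratins well clear of that floor had the same direction: of the 10 whose mean limb level exceeded the array's 75th percentile, 9 lay below 0 (against 57.2% of the 8094 such genes) and 5 were at least 1.5-fold lower (against 0.939%), with a median of -0.56 against -0.02. Of the 4 keratins past 2-fold, only Krt1 belonged to these 10. With normexp background correction Krt80 no longer reached 2-fold (-0.58), and with the mean of both probes Krt1 did not (-0.59). The second Krt1 probe lies on the opposite strand and differed by 0.01 in limb, so averaging it in shrinks the Krt1 difference. With normexp the 11 keratins at least 1.5-fold lower became 7, as Krt2 (-0.43), Krt5 (-0.56), Krt80 and Krt84 (-0.54) fell short, and with quantile normalization they became 10, without Krt5 (-0.51).

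**Figure D2:**
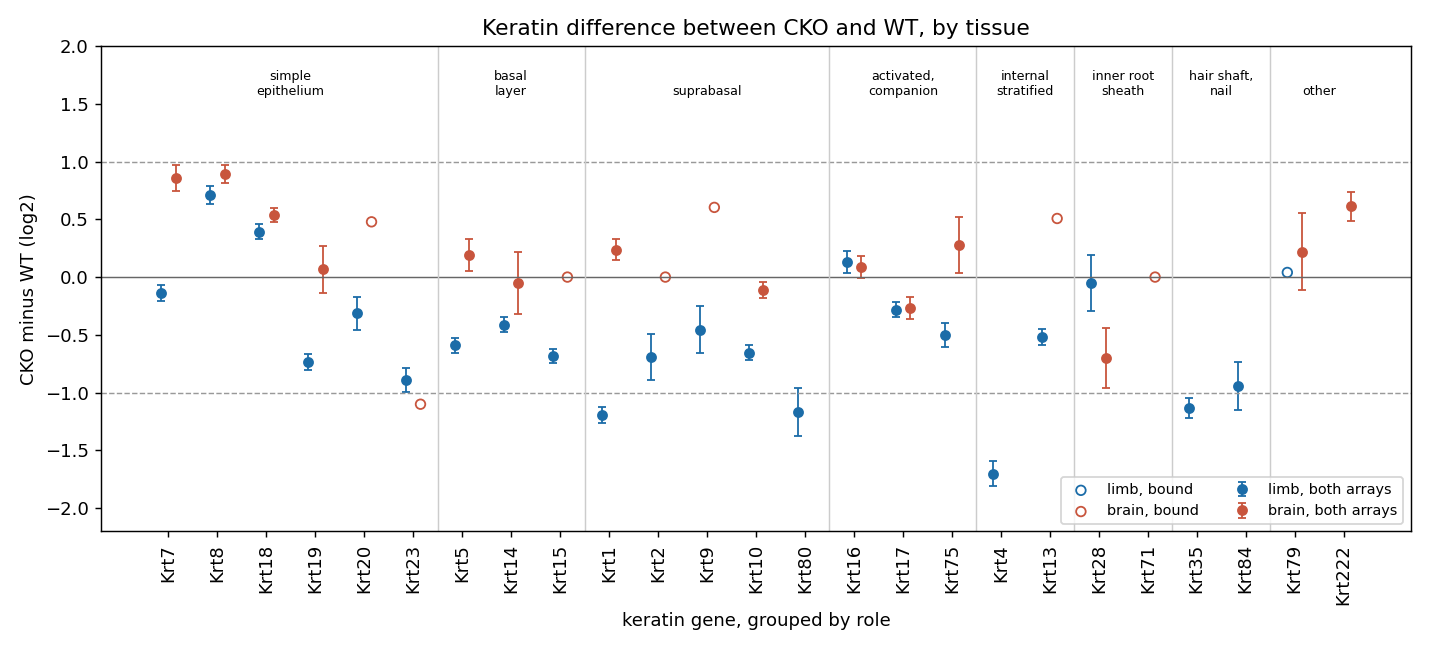
Difference between CKO and WT (vertical axis, log2) for each detected keratin by role, limb in blue and brain in red; bars are 1 technical SD from replicated probes, open circles are bounds where 1 array was not well above background, and dashed lines mark 2-fold. Limb points lie mostly below 0 apart from Krt8, Krt18 and Krt16, whereas Krt7, Krt8, Krt18 and Krt222 lie highest among the filled brain points.

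In brain no such shift was seen. Of the 21 keratins detected on at least 1 brain array, none was at least 2-fold higher in CKO (against 1.37% of all 18946 genes compared) and 1 was at least 2-fold lower (against 1.22%). That 1 was Krt23, with a level of -5.09 on WT brain and undetected on CKO brain, at least 2.14-fold lower. At 1.5-fold, 4 keratins were higher (19.0%, against 3.51%) and 2 lower (9.52%, against 1.97%). The median over the 21 was 0.19, against -0.01 over all genes, and over the 14 detected on both arrays it was 0.21, with 10 above 0 and 4 below 0 (28.6% below, against 57.4% of genes).

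The higher keratins in CKO brain were Krt8, Krt7, Krt222 and Krt9. Krt7 had levels of -3.17 on WT brain and -2.31 on CKO brain and was 1.81-fold higher (0.86 ± 0.11); with normexp the difference was 0.48. Krt222, a type I family member, had levels of -3.95 and -3.34, was undetected in limb and was 1.53-fold higher in CKO brain (0.61 ± 0.13); with normexp it was 0.27. Krt9 was detected on the CKO brain array alone and was at least 1.52-fold higher; with normexp its measured difference was 0.01. Of these 4, only Krt8 was past 1.5-fold with normexp (0.74), and 2 keratins were past it with quantile normalization.

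Apart from Krt9, the basal and suprabasal keratins detected in brain differed little between the brain arrays, where Krt5, Krt14 and Krt15 were dim. Krt5 differed by 0.19 ± 0.14 and Krt14 by -0.05 ± 0.27, and Krt15 was detected on CKO brain alone at a level too near the floor for a bound above 1. Krt1 differed by 0.24 ± 0.09 and Krt10 by -0.11 ± 0.07. Krt28, an inner root sheath keratin, was 1.63-fold lower in CKO brain (-0.70 ± 0.26), and Krt17 was 1.20-fold lower (-0.27 ± 0.09). With normexp the differences of Krt5 (-0.03), Krt19 (-0.09) and Krt79 (-0.11) in brain turned below 0.

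Krt8 and Krt18, the simple-epithelium pair, were higher in CKO in both tissues. Krt8 had levels of -0.55, 0.15, -1.48 and -0.59. It was 1.63-fold higher in CKO limb (0.71 ± 0.08) and 1.85-fold higher in CKO brain (0.89 ± 0.08). Krt18 had levels of 1.77, 2.16, 0.81 and 1.35. It was 1.31-fold higher in CKO limb (0.39 ± 0.06) and 1.45-fold higher in CKO brain (0.54 ± 0.06). In each tissue the CKO value exceeded the WT value for both genes by well over the technical SD, and the difference of Krt8 was larger than that of Krt18 by 0.32 log2 in limb and 0.35 in brain.

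Krt8 was the only keratin at least 1.5-fold higher in both tissues, which held for 71 of 15631 genes detected on all 4 arrays (0.454%). Its second probe, which lies close to the first, had levels of -0.62, 0.05, -1.41 and -0.65, and was 1.59-fold higher in CKO limb and 1.70-fold higher in CKO brain. The brightest probes of Krt8 and Krt18 lie 35.1 kb apart on chromosome 15 (mm9), on opposite strands, and the genes are neighbours in RefSeq's order of protein-coding genes; Krt18 is the 1 type I keratin on that chromosome. The next gene beyond Krt18, the translation initiation factor gene Eif4b, differed by -0.03 in limb and 0.01 in brain. On the Krt8 side, Krt78 was undetected, Krt79 differed by 0.22 ± 0.33 in brain, and Krt4 was the keratin with the lowest limb ratio.

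Compared with the epidermal pairs, the simple-epithelium pair therefore stood on the opposite side of 0 in limb. The type II and type I members of each pair had the same sign in limb: 0.71 and 0.39 for Krt8 and Krt18, -0.59 and -0.41 for Krt5 and Krt14, -1.20 and -0.66 for Krt1 and Krt10, and -1.70 and -0.52 for Krt4 and Krt13. In each pair the type II member had the larger difference. Without Krt8 and Krt18, 19 of 20 keratins detected on both limb arrays lay below 0, with a median of -0.62.

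The genotype was also tested over all 4 arrays, with tissue as a block, by limma's moderated test with Benjamini-Hochberg adjustment over 18123 genes. No gene reached an adjusted p of 0.05, keratin or other, and 1057 genes (5.83%) had an unadjusted p below 0.05. Of the 24 keratins tested, 6 had an unadjusted p below 0.05, 2 higher (Krt8 and Krt18) and 4 lower (Krt17, Krt23, Krt35 and Krt80). The fitted difference was 0.80 for Krt8 (SE 0.09, limma adjusted p = 0.685) and 0.47 for Krt18 (SE 0.06, limma adjusted p = 0.685). The fit has 1 residual degree of freedom, which is the difference between the tissues, so a keratin that is lower in limb and not in brain carries a large error there.

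Between tissues, keratin signal was far higher in limb than in brain. In a limma fit over the genes detected on all 4 arrays, with genotype as a block, 11 of 12 keratins were lower in brain at an adjusted p below 0.05 (against 35.4% of genes) and none was higher (against 33.7%). The exception was Krt28. The fit over all 18123 genes detected on both arrays of at least 1 tissue also took in 10 keratins through limb alone and 2 through brain alone. That entry rule favours a difference between the tissues, so the count is given only to account for the members. It was 20 of 24 lower in brain (against 34.2%) and 1 higher (against 33.3%). Krt9, Krt28 and Krt79 passed in neither direction.

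The basal-layer keratins had the widest gap. Krt5 was 1059-fold lower in WT brain than in WT limb and 614-fold lower in CKO brain than in CKO limb (limma, -9.65, SE 0.24, adjusted p = 0.0024). Krt14 was 220-fold and 172-fold lower (-7.60, SE 0.13, limma adjusted p = 0.0024). Krt15, undetected on WT brain, was at least 1082-fold lower there. Of these 3, Krt15 lay at the detection limit in brain, with a level of -5.77 on CKO brain. Krt5 and Krt14 were dim there, with levels of -3.69 or lower, but were detected on both brain arrays.

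Krt17 had the most even ratio of the epidermal keratins, 27.9-fold lower in brain in WT and 27.6-fold in CKO (limma, -4.79, SE 0.06, adjusted p = 0.0024). Krt19 was 35.9-fold and 20.6-fold lower, Krt7 46.6-fold and 23.4-fold, and Krt1 10.8-fold and 4.01-fold. For these 3 the gap was narrower in CKO, as follows from a lower CKO value in limb, a higher one in brain, or both. For keratins undetected on both brain arrays only bounds can be given: Krt35 was at least 24.9-fold higher in limb, Krt4 at least 9.25-fold, Krt80 at least 3.18-fold and Krt84 at least 3.06-fold.

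Krt8, Krt18 and Krt16 differed least between the tissues among the keratins that passed. Krt8 was 1.90-fold lower in brain in WT and 1.67-fold in CKO (limma, -0.83, SE 0.09, adjusted p = 0.0083). Without the genotype block the limma adjusted p of Krt8 was 0.142, and over the other alternatives it ranged from 0.0042 to 0.0191. Krt18 was 1.95-fold and 1.76-fold lower in brain (limma, -0.89, SE 0.06, adjusted p = 0.0045). Krt222 went the other way: it was undetected in limb and at least 3.27-fold higher in brain, a bound given as a description, since it entered the fit through brain alone.

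The second probes gave the same limb direction for Krt7, Krt8, Krt10 and Krt13, and another reading for Krt1 and Krt2. The second Krt1 probe (chr15:101678904-101678963, mm9) lies on the strand opposite to the first (chr15:101676107-101676166) and had levels of -4.85, -4.84, -5.17 and -4.74, so it differed by 0.01 in limb and by 0.44 in brain. The second Krt2 probe was undetected on 3 of the 4 arrays. The second Krt7 probe was 1.28-fold higher in CKO brain, undetected on WT brain, against 1.81-fold at the first.

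The 2 Krt10 probes disagreed on whether Krt10 RNA was detected in brain, and their sequences from the scanner files, 60 bases each, are shown for that reason.
Krt10 brighter probe: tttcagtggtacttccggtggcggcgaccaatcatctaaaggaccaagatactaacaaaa
Krt10 other probe: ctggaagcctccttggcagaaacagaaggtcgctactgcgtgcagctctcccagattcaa
The brighter probe spans 343 bases of the genome (chr11:99246939-99247281, mm9) and was well above background in brain, at 0.84 on WT and 0.72 on CKO. The other probe (chr11:99247994-99248053) was undetected on both brain arrays, at -5.46 and -6.42, although it was bright in limb, at 1.80 on WT and 1.02 on CKO. Both probes were lower in CKO limb, by 0.66 and 0.79 on the log2 scale. The longest run of bases that the brighter probe shares with a probe named for another gene was 14 on the same strand and 15 on the opposite strand. Its brain signal is given here as the signal of that probe, and its source was not tested.

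**Figure D3:**
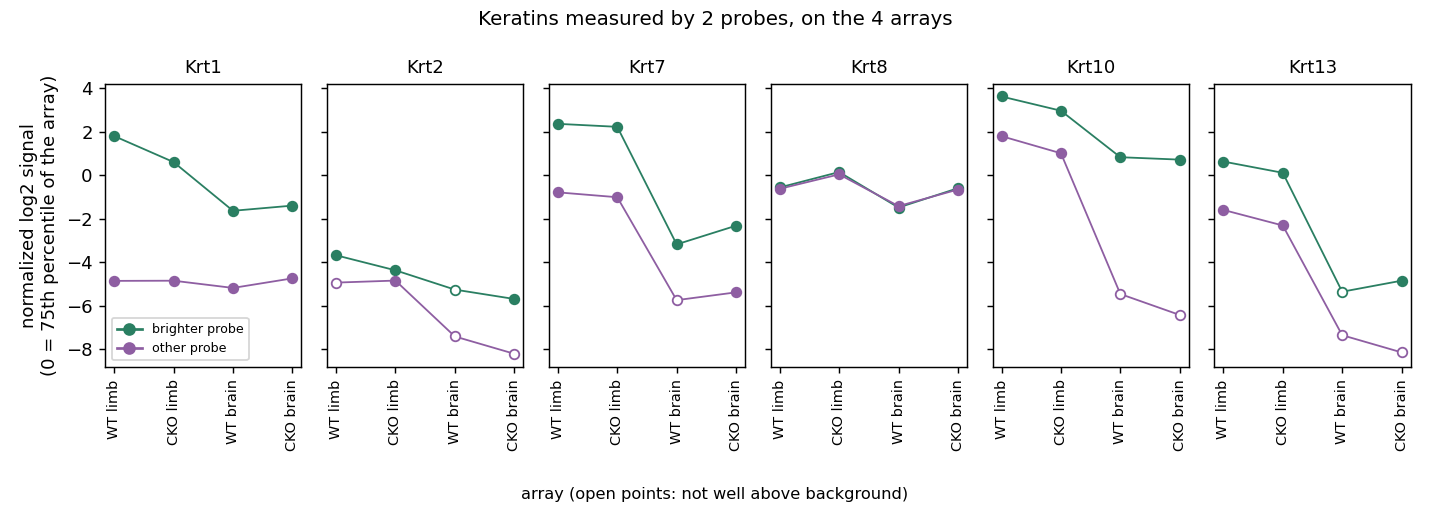
Level (vertical axis, log2 signal relative to the array's 75th percentile) of both probes of the 6 detected keratins that had 2, on the 4 arrays; lines join the values of 1 probe and open points were not well above background. The Krt8 probes nearly coincide, while the second Krt10 probe drops to -5.46 and -6.42 in brain where the brighter one stays near 0.8, and the second Krt1 probe is flat.

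Genes of desmosomes and hemidesmosomes, which anchor keratin filaments at the cell membrane, had a median of -0.54 in limb, against -0.02 over all genes compared. Of the 21 compared, 2 were at least 2-fold lower (against 2.15% of all genes) and none was higher (against 2.51%). Of the 19 detected on both limb arrays, 17 lay below 0, against 58.9% of genes. The cadherin gene Dsg1a was 3.27-fold lower, the hemidesmosomal collagen gene Col17a1 1.75-fold, the plakophilin gene Pkp1 1.72-fold and the periplakin gene Ppl 1.69-fold. Of the 20 genes of the cornified envelope and of keratinocyte differentiation compared, 2 were at least 2-fold lower (against 2.15%), with a median of -0.59, and 18 of the 20 lay below 0 (against 58.9%). Among them the calmodulin-like gene Calm4 was 2.27-fold lower, the transglutaminase gene Tgm3 1.90-fold and Krtdap, a keratinocyte differentiation gene, 1.91-fold.

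The regulators of epidermis and ectoderm followed with a median of -0.40 over 20 genes in limb, 2 of them at least 2-fold lower (against 2.15%) and none at least 2-fold higher (against 2.51%). Of these 20 genes, 18 lay below 0 (against 58.9% of genes detected on both limb arrays). The homeobox gene Dlx3 was 2.35-fold lower, Ovol1 2.02-fold and Tfap2c, which encodes an AP-2 factor, 1.88-fold, whereas the receptor gene Eda2r was 1.61-fold higher. Trp63, the regulator of stratified epithelium that directs Krt5 and Krt14 expression, was 1.48-fold lower. The epithelial junction genes were nearer to 0, with a median of -0.18 over 20 genes and none past 2-fold in either direction. Of the 19 detected on both limb arrays, 18 still lay below 0 (against 58.9%). Of the 8 apical ectodermal ridge genes compared, 1 was at least 2-fold lower (against 2.15%), the transcription factor gene Sp6, and the median was -0.10. These lists were assembled with earlier results of these data known, and their part in the keratin difference was not tested.

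Among other intermediate filament genes, CKO limb was at least 2-fold higher for 3 of the 15 compared (against 2.51% of all genes) and at least 2-fold lower for none (against 2.15%), with a median of 0.09. The neurofilament gene Nefm was 3.91-fold higher and the internexin gene Ina 3.48-fold higher. In brain none of the 15 reached 2-fold, and the median was 0.00 to 2 decimals.

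In brain the epithelial lists differed among themselves. Of the 20 epithelial junction genes, 11 were detected on WT brain and 18 on CKO brain (over all genes, 62.4% and 68.0%), and their summed signal went from 116.5% to 203.8% of the array's 75th percentile. Of the 18 compared, 5 were at least 2-fold higher (against 1.37%), with a median of 0.33; the adhesion molecule gene Epcam was 4.60-fold higher and the protease inhibitor gene Spint1 3.34-fold. Cdh1, the epithelial cadherin gene, was 1.24-fold higher, and Trp63 was undetected on both brain arrays. The other epithelial lists had brain medians near 0: 0.07 for the desmosome genes with 1 of 14 at least 2-fold higher, 0.07 for the cornified envelope genes with 1 of 14, and 0.09 for the regulators with 2 of 12. The desmosomal plaque gene Dsp was 1.56-fold lower in CKO brain.

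Genes of inner ear epithelium and of head mesenchyme were also higher in CKO brain in part. Of 13 inner ear genes, 7 were detected on WT brain and 11 on CKO brain, with a summed signal of 175.5% and 952.8% of the 75th percentile, or 170.2% and 403% without Oc90. The otoconial protein gene Oc90 was 105-fold higher in CKO brain and Otor, a cochlear secreted protein gene, 7.09-fold higher. All 12 meninges and head mesenchyme genes were detected on both brain arrays, 5 were at least 2-fold higher (against 1.37%), and their summed signal went from 4086.3% to 6828.3%. Of the 11 choroid plexus and ependyma genes, 1 was at least 2-fold higher in CKO brain, the ion channel gene Trpv4 (2.23-fold), and the median was -0.07; the choroid plexus markers Ttr and Folr1 differed by -0.10 and -0.06. In limb the inner ear genes had a median of -0.44, and 7 of the 8 detected on both arrays lay below 0 (against 58.9%). The 12 meninges and head mesenchyme genes had a limb median of -0.22, with 10 below 0. For the choroid plexus and ependyma genes, 4 of 7 lay below 0 in limb. The part of these cell types in the keratin differences of either tissue was not tested.

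**Figure D4:**
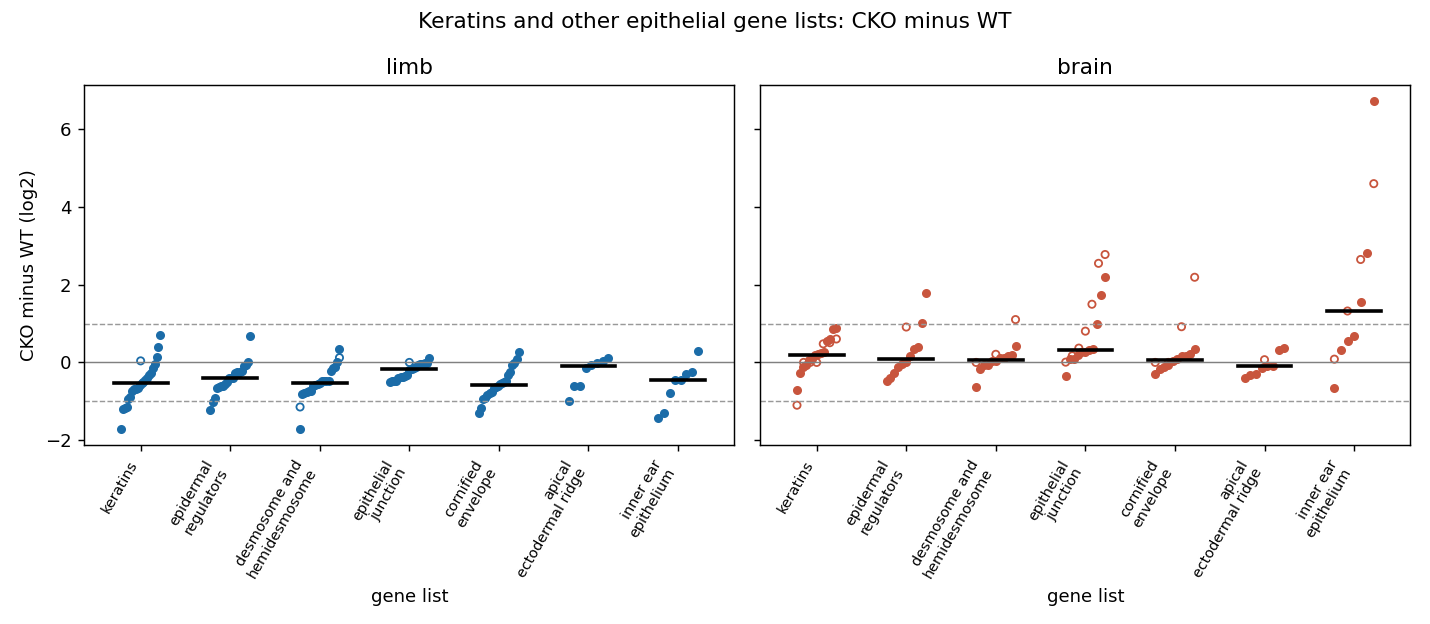
Difference between CKO and WT (vertical axis, log2) of the members of each gene list in limb (left) and brain (right); each point is 1 gene, open points are bounds, bars are medians and dashed lines mark 2-fold. In limb the keratins (median -0.52) lie with the desmosome (-0.54), cornified envelope (-0.59) and inner ear genes (-0.44), and in brain the inner ear genes spread highest.

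The keratin promoters were searched on both strands, over the 250 bases before the start, for 7 short motifs. The arms of the REST binding element, TTCAGCACC and GGACAGCGC, matched in none of the 29 keratin promoters and in 0.301% and 0.304% of all 32851. With matches this rare, none is the likely outcome for any 29 promoters and says nothing particular about keratins. The TATA box TATAAA matched in 44.8% of keratin promoters and in 12.4% of all. It was found in 13 keratins, among them Krt10, Krt20, Krt28, Krt71 and Krt84, and not in the stretches shown for Krt8, Krt18 and Krt7.

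The GC box GGGCGG matched in 6.9% of keratin promoters, those of Krt7 and Krt75, against 32.7% of all promoters. The AP-2 motif GCCNNNGGC matched in 13.8%, those of Krt7, Krt9, Krt18 and Krt42, against 13.7%, and in Krt7 its first match overlaps a GC box. The CCAAT box CCAAT matched in 37.9% against 33.8%, and the AP-1 motif TGACTCA in 3.45%, Krt13 alone, against 4.46%. A match is a stretch of letters and not a measured binding site, and the stretch shown for Krt8 held none of these 7 motifs.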

How the data were processed

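Per the submitters' processing notes, Agilent Feature Extraction 9.5.3.1 read the 1-colour arrays of 60-base probes. The deposited intensity values were background-subtracted and detrended within each array, with no normalization between arrays, per the file headers, which also give probe positions on mm9. Control spots and outlier-flagged spots were left out, log2 was taken, and each array's 75th percentile was subtracted. Spots of 1 probe were averaged. Probes were named by accession, symbol or synonym through RefSeq tables. Where a gene was detected on 1 array of a pair, its difference is a bound against the lowest signal well above background on that array. Differences of 2 arrays were called at 2-fold. limma 3.58.1 (R 4.3.3) was fitted, by lmFit and eBayes with an intensity trend, over all genes detected on both arrays of at least 1 tissue. Its code was also tested on simulated data with independent noise, which does not show how the p-values behave on these 4 arrays. Technical SDs are medians over the 40 replicated probes nearest in level. Labels do not say whether the 2 arrays of a tissue stand for separate litters, and p-values measure only the spread between these arrays. The number of arrays limits the precision.

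Members, lists and tests were chosen with earlier results of these data known. The text names Rest, every keratin detected on at least 1 array, and up to 4 members per list, by size of difference from 1.5-fold upwards where both arrays detected them, with marker genes for the checks. Alternatives were normexp (offset 50), quantile normalization, the percentile over detected probes, the mean of all probes, other filters, 1.5-fold, the deposited series table (largest gap 0.0071 log2), no trend and no block. A filter on mean level was added after the data were seen. Some marker and list members are not reported here.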

Additional observations from a re-analysis of the deposited data

Results flagged for a closer look

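Krt1 and Krt7 differed in opposite directions in the tissues, each by more than 2 technical SDs. Krt1 was lower in CKO limb (-1.20) and higher in CKO brain (0.24), and Krt7 was lower in CKO limb (-0.14) and higher in CKO brain (0.86). The Krt7 limb difference is small: with normexp it was -0.11 against a technical SD of 0.07, no longer past 2 technical SDs. Each value rests on 1 array per group, so the difference between the tissues was not tested.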

How the results depend on the processing

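At 1.5-fold in place of 2-fold, 1 keratin was higher and 11 lower in CKO limb, and 4 were higher and 2 lower in CKO brain. The count of 1 keratin at least 2-fold lower in brain became 0 with normexp, with detection required on both arrays, and with the mean level required above the 75th percentile, an alternative chosen after seeing the data that also left 1 keratin lower in limb. With alternatives added after seeing the data, the 11 keratins at least 1.5-fold lower in limb became 7 with normexp, and the 4 at least 1.5-fold higher in brain became 1 with normexp and 2 with quantile normalization. The brain median of 0.19 became 0.00 with normexp and 0.088 with the mean of all probes; the limb median stayed between -0.56 and -0.43 in every alternative run. In the tissue fit, requiring detection on all 4 arrays left 11 keratins lower and 0 higher in brain, since fewer keratins enter. Krt9 passed there with normexp, Krt8 did not without the block and Krt20 did not without the trend. No limma setting gave a keratin that passed for genotype, and the lowest adjusted p of any gene was 0.383, with normexp. Among single keratins, 14 of 75 values moved by more than their technical SD in limb and 18 of 75 in brain, and Krt5, Krt13, Krt19 and Krt79 in brain and Krt79 in limb changed sign with normexp, Krt13 in brain with the mean of its probes, and Krt4, undetected in brain, there with quantile normalization. The scalings moved the median of all genes by under 0.1 log2. No paired analysis was possible because each group holds 1 array and the labels give no replicate numbers, and for the same reason no array could be left out. Dim signal limits the brain values: 7 of 21 are bounds.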

Other observations

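Keratin genes whose names end in a letter were measured outside the rule. Krt6b, a type II keratin of activated epidermis, had levels of -2.64 on WT limb and -3.86 on CKO limb, 2.32-fold lower, and was undetected in brain. Krt6a was 1.40-fold lower in CKO limb. The hair keratin Krt33b resembled Krt10 in its probes: the brighter one, which spans 939 bases, was detected in brain at -3.31 on both arrays, and the other was undetected there, at -7.11 and -6.95. Krt33a was detected on the CKO limb array alone. Among the genes near Krt18, the focal adhesion gene Tns2 differed by -0.11 in limb and -1.08 in brain. These values belong to no comparison above.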
